A study of Mus musculus with 12 samples.

Results

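The collagen genes of the mouse thymus are the subject here, taken as every symbol of the mRNA table made of Col, a number, the letter a and a number. By this rule 44 genes were found among the 22843 genes of the table, 11 fibrillar, 8 of the basement membrane and 25 others, and their 145 transcripts were summed by symbol. Whole thymus of untreated male C57BL/6 mice, an inbred strain, was sequenced at 2 weeks (2W), 6 weeks (6W) and 3 months (3M), with 2 biological replicates for each age. The question behind the ages is how the organ changes during its fast growth after birth (2W to 6W) and its later decline (6W to 3M). Libraries of ribosomal RNA-depleted total RNA gave the mRNA and circRNA tables, and libraries of small RNA the miRNA table. The mRNA libraries held 16355849 to 22387100 estimated counts.

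Most collagens are secreted proteins, and their chains wind in threes into a stiff triple helix. Fibrillar collagens such as types I, III and V assemble into the fibres of capsules, septa and vessel walls, type IV forms the net of basement membranes, and smaller families decorate fibres or tie cells to the matrix. In the thymus they are known from the capsule, the septa and the perivascular spaces, where fibroblasts, mural cells and endothelium make them, while thymocytes make up most of the organ. The tissue label was checked with marker genes: the 8 genes of double-positive (DP) thymocytes summed to 11730 to 16380 counts per 1000000 counts of the library (CPM) and the 8 genes of thymic epithelium to 701.5 to 1002 CPM. In such bulk samples, fewer cells of a type and less RNA per cell cannot be told apart.

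Between 2W and 3M, the fibrillar collagen genes Col1a1, Col3a1 and Col5a1 fell, and Col18a1 of the basement membrane and Col12a1, a collagen of fibre surfaces, rose. Col1a1 and Col3a1 ended 2.34-fold and 2.35-fold below their 2W level. Of the 44 genes, 35 had enough counts to be tested, and 5 of them passed an adjusted p of 0.05 in 3M against 2W (edgeR's quasi-likelihood test, Benjamini-Hochberg over 14805 genes), 3 lower and 2 higher. Without 2W replicate 1, and likewise without 2W replicate 2, the calls of Col5a1, Col18a1 and Col12a1 were lost, with their signs kept. Fewer of all genes were called in these fits as well. With all 6 libraries, 11.0% of all genes tested were called in 3M against 2W, 3.1% as lower and 7.91% as higher. The share of collagen genes called, 14.3%, was thus near the background. In 6W against 2W, 0 collagen genes were called at a background of 1.74%, and 11 of 35 had an unadjusted p under 0.05 (18.9% of all genes tested). In 3M against 6W, 0 were called at a background of 0.00675%, and 7 of 35 had an unadjusted p under 0.05 (14.3% of all genes tested). DESeq2 called 3 there (Col12a1, Col1a1 and Col3a1), beside 341 of all 14805 genes, and 0 in 6W against 2W, beside 888. At the threshold of the study (unadjusted p under 0.05, and a log2 fold change beyond 1 in either direction), Col4a4 and Col8a2 passed in 6W against 2W (background 5.36%), 0 collagen genes in 3M against 6W (background 2.11%), and Col1a1 and Col3a1 in 3M against 2W (background 9.35%). The comparisons share libraries and are not independent of each other.

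Summed over its members, the fibrillar class was lower at each later age in CPM, and the other classes did not share this order. The fibrillar sum was 485.5 and 519.2 CPM at 2W, 456.5 and 417.3 CPM at 6W, and 295.9 and 256.6 CPM at 3M. The 3 ages did not overlap, and the log2 ratio of the means was -0.20 from 2W to 6W and -0.66 from 6W to 3M. The basement membrane sum was 352.2 and 313.7 CPM at 2W, 268.3 and 258.8 CPM at 6W, and 252.8 and 302.1 CPM at 3M. It was lower at 6W and at 3M than at 2W in every library, and the 3M libraries lay on either side of the 6W ones. The sum of the other collagens was 229.8 and 201.0 CPM at 2W, 261.5 and 253.5 CPM at 6W, and 244.9 and 287.3 CPM at 3M. Here both 2W libraries were the lowest. In FPKM the lower 2W fibrillar sum, 75.5, and the higher 6W one, 75.8, overlapped, with both 3M sums (49.1 and 42.6) below them, and the basement membrane sums of 2W and 3M overlapped as well. The sums are given as values and were not tested. An exact permutation test of 2 libraries against 2 cannot give a p under 0.33. Among FPKM values, which are per length and are used here to compare genes, fibrillar members made up 42.9% and 49.6% of the summed collagen FPKM at 2W, 44.6% and 43.0% at 6W, and 38.3% and 29.9% at 3M. In the same libraries the 25 other collagens made up 20.5% and 18.4% at 2W and 28.6% and 32.5% at 3M.

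**Figure D1:**
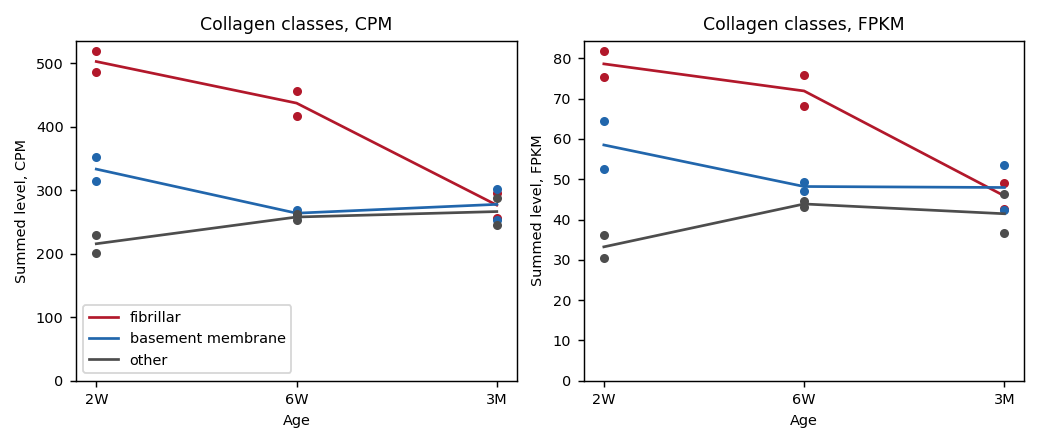
Summed collagen level by class against age, in CPM (left) and FPKM (right), with a point for each library and a line through the means. The fibrillar points (red) at 3M, 295.9 and 256.6 CPM, lie below all fibrillar points of 2W and 6W, and at 3M the means of the fibrillar, basement membrane (blue) and other collagens (grey) lie close together, at 276.2, 277.5 and 266.1 CPM.

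By mean FPKM, Col3a1 stood first at 2W with 39.3 and 43.8 FPKM and Col4a1 second with 31.8 and 21.9 FPKM. Col1a2 came next with 13.5 and 16.1 FPKM, then Col15a1 with 14.8 and 14.6 FPKM and Col1a1 with 13.4 and 13.2 FPKM. Col1a2 and Col15a1 overlapped and Col1a1 came close to both, so the order of Col1a2 and Col15a1 is not beyond the spread of the libraries. A gene's FPKM is the sum over its transcripts, so that few counts on a short transcript add much: 1 Col4a1 transcript added 8.03 FPKM from 88.1 estimated counts in 2W replicate 1 and 1.32 FPKM from 14.9 in 2W replicate 2. At 3M Col4a1 (15.9 and 21.2 FPKM) and Col3a1 (20.6 and 16.6 FPKM) had overlapping values and led together. Col1a1 had moved to 6.18 and 5.78 FPKM, below Col6a1, which stood at 10.7 and 15.0 FPKM.

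Col3a1 encodes the single chain of type III collagen, the fibre of soft and elastic organs. Its level was 246 and 273 CPM at 2W, 219 and 204 CPM at 6W, and 124 and 97.1 CPM at 3M. Every younger library was above every older one. The log2 fold change of Col3a1 in 3M against 2W was -1.23 (SE 0.15, adjusted p = 0.00792), 2.35-fold lower. In 3M against 6W the log2 fold change was -0.94 (SE 0.15, adjusted p = 0.177) and in 6W against 2W it was -0.29 (SE 0.15, adjusted p = 0.327), and neither passed the test.

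Col1a1, which encodes the main chain of type I collagen, had a similar course. Its level was 89.5 and 87.5 CPM at 2W, 77.2 and 65.9 CPM at 6W, and 39.8 and 35.9 CPM at 3M. The ages did not overlap, and Col1a1 fell 2.34-fold in 3M against 2W (log2 fold change -1.22, SE 0.13, adjusted p = 0.00623). In 3M against 6W the log2 fold change was -0.92 (adjusted p = 0.177) and in 6W against 2W it was -0.31 (adjusted p = 0.249). The FPKM ratio of Col3a1 to Col1a1 stayed between 2.88 and 3.33 in the 6 libraries. Col1a1 and Col3a1 were called in 3M against 2W with each of the 6 libraries left out in turn, with adjusted p-values of at most 0.0439 and 0.0448.

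Col1a2 encodes the partner chain of type I collagen. It was measured at 77.3 and 88.1 CPM at 2W, 89.0 and 78.3 CPM at 6W, and 67.1 and 58.5 CPM at 3M. The 2W and 6W libraries overlapped, and both 3M libraries were lower, with a log2 fold change in 3M against 2W of -0.40 (SE 0.13, adjusted p = 0.113). The FPKM ratio of Col1a1 to Col1a2 was 0.997 and 0.820 at 2W, 0.757 and 0.757 at 6W, and 0.460 and 0.519 at 3M, lower at each later age in every library. The counts of Col1a2 were divided between an Ensembl transcript and a transcript assembled by the authors, and the division changed between libraries. The Ensembl transcript held 151 and 728 of the estimated counts in the 2W libraries, but 867 and 1202 in the 3M ones. The assembled transcript held 1061 and 685 in the 2W libraries and 213 and 86.5 in the 3M ones. With assembled transcripts left out, the log2 fold change of Col1a2 in 3M against 2W was 0.95 (adjusted p = 0.43), so the sign rests on counting both.

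Type V collagen sits in the core of type I fibres and limits their width. Its gene Col5a1 was measured at 26.4 and 27.2 CPM at 2W, 20.5 and 19.2 CPM at 6W, and 16.5 and 15.7 CPM at 3M. All ages were apart, and Col5a1 fell in 3M against 2W (log2 fold change -0.73, SE 0.12, adjusted p = 0.0155). The call of Col5a1 was lost without 2W replicate 1 (adjusted p = 0.0682), 2W replicate 2 (0.0753), 6W replicate 1 (0.0554) or 6W replicate 2 (0.0588), and with the 2W and 3M libraries compared alone (0.0547). Its partner chain Col5a2 stood at 19.9 and 23.5 CPM at 2W, 27.4 and 24.7 CPM at 6W, and 25.7 and 25.6 CPM at 3M, with a log2 fold change in 3M against 2W of 0.24 (SE 0.13, adjusted p = 0.292). The FPKM ratio of Col5a1 to Col5a2 was 1.04 and 0.911 at 2W and 0.559 and 0.485 at 3M. Col5a2 lies next to Col3a1 on chromosome 1 of GRCm38.p6 with 0 coding genes between them, and of these neighbours Col3a1 was called as lower and Col5a2 was not called.

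**Figure D2:**
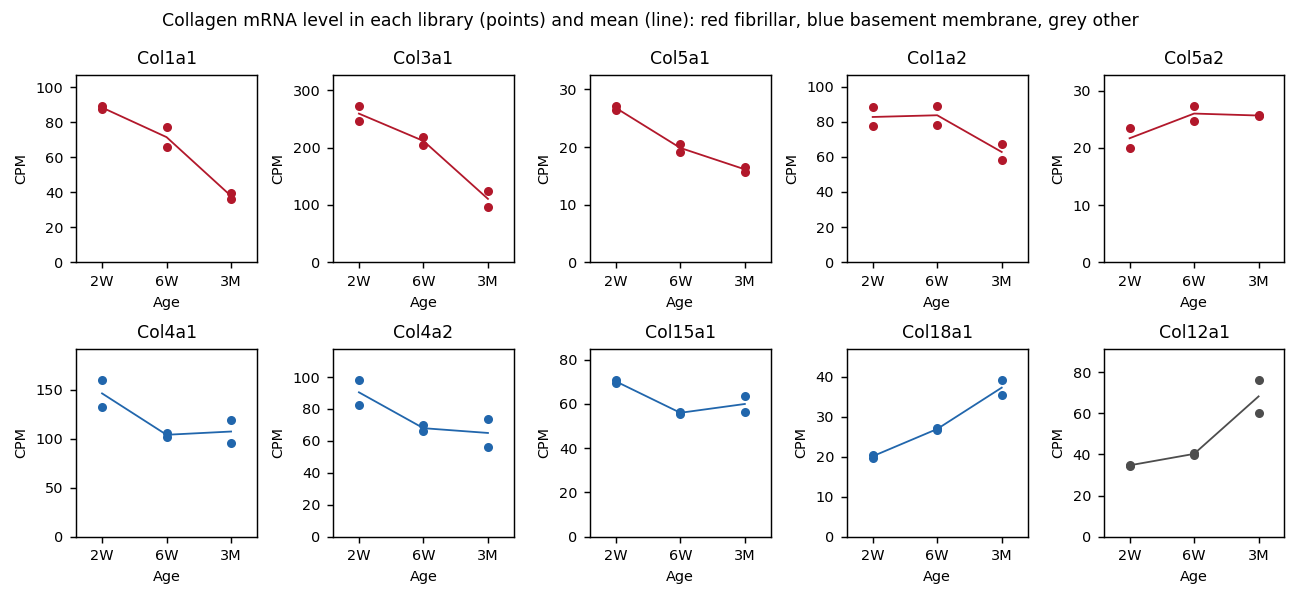
Level of 10 collagen genes in CPM against age, with a point for each library and a line through the means, red for fibrillar, blue for basement membrane and grey for other collagens. Col1a1, Col3a1 and Col5a1 fell from 2W to 3M, Col18a1 and Col12a1 rose, and the libraries of Col1a2 and Col5a2 overlapped between some ages.

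Start-site sequence is shown for Col3a1 and Col5a1, as members that fell together and have a window in the RefSeq table used (GRCm38.p6, 250 bases before to 50 after the annotated start). The CCAAT box (letters CCAAT), the TATA box (letters TATAAA) and the GC box (letters GGGCGG) were searched on both strands, no match overlapped another, and matches are in capitals.
Col3a1, chr1:45311288-45311587, plus strand: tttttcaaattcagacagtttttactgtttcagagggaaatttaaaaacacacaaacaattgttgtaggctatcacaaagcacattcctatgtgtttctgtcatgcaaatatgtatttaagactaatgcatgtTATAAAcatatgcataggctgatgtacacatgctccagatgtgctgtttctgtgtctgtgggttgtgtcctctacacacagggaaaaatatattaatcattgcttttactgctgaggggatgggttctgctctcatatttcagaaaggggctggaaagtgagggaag
Col5a1, chr2:27886175-27886474, plus strand: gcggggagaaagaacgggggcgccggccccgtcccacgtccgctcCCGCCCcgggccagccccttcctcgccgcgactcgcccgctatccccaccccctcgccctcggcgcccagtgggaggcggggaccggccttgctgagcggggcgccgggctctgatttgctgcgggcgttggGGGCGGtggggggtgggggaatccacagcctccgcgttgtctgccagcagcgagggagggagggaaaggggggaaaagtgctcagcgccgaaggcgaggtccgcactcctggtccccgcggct
The Col3a1 window held 1 match of the TATA box and 0 of the others, and the Col5a1 window held the GC box 1 time on each strand and 0 of the others. Of all 32851 windows, 13.6% held the TATA box letters, 35.7% those of the GC box and 37.4% those of the CCAAT box on either strand. Of the 38 windows of 35 collagen genes, 13.2%, 60.5% and 34.2% did. These are matches of letters and no measure of binding.

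The remaining fibrillar genes were low or did not pass the test. Col27a1 (10.4 to 14.6 CPM over the 6 libraries), Col11a2 (5.16 to 7.40 CPM) and Col5a3 (3.64 to 5.69 CPM) had log2 fold changes in 3M against 2W of 0.18, -0.16 and -0.24. Col2a1, the cartilage collagen, stayed at 0.180 to 0.569 CPM. Col11a1 and Col24a1 were too low to be tested, with at most 3 estimated counts in any library. Over the 9 fibrillar genes tested the median log2 fold change in 3M against 2W was -0.40, beside -0.03 over all genes tested, with 7 of 9 below 0.

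Type IV collagen is the scaffold of every basement membrane, and Col4a1 and Col4a2 are its common chains. Their genes are neighbours on chromosome 8 and start back to back, so their start-site windows are printed with the 78 bases that both share in capitals (GRCm38.p6, chr8:11312777-11312854). The shared stretch reads as the reverse complement in one against the other.
Col4a1, chr8:11312777-11313076, minus strand: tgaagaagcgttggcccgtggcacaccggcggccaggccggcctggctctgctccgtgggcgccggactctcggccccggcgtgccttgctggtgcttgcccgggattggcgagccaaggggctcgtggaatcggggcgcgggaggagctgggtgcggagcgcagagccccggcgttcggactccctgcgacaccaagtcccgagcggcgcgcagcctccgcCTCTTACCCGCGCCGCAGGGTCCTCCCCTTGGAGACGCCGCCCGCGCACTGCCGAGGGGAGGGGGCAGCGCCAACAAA
Col4a2, chr8:11312555-11312854, plus strand: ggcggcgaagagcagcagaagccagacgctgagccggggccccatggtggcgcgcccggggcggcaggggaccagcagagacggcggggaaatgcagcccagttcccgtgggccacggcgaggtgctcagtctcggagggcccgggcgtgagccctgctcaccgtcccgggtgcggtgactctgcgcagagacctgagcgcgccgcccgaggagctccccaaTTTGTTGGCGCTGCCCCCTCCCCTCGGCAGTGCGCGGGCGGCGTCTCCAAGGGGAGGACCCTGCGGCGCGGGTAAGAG
Col4a1 was measured at 160 and 133 CPM at 2W, 106 and 102 CPM at 6W, and 95.9 and 119 CPM at 3M. Col4a2 was measured at 98.1 and 82.8 CPM at 2W, 69.9 and 66.0 CPM at 6W, and 56.2 and 73.6 CPM at 3M. For both genes the 2W libraries were the highest, the 6W libraries lay close together and the 3M libraries fell on either side of them. Their log2 fold changes in 6W against 2W were -0.49 (SE 0.15, adjusted p = 0.165) and -0.41 (SE 0.16, adjusted p = 0.242), and in 3M against 2W -0.45 (SE 0.15, adjusted p = 0.114) and -0.48 (SE 0.16, adjusted p = 0.115). With a library left out, the log2 fold change in 3M against 2W ranged from -0.64 to -0.27 for Col4a1 and from -0.72 to -0.27 for Col4a2. Between both genes the FPKM ratio ranged from 1.92 to 2.35 and had no order by age.

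The rarer type IV chains were far lower. Col4a5 stood at 3.10 to 6.19 CPM, Col4a6 at 0.253 to 1.74 CPM, and Col4a4, a chain of the kidney filter, at 0.379 and 0.736 CPM at 2W and 1.70 and 1.15 CPM at 6W. Col4a4 passed the study's threshold in 6W against 2W with a log2 fold change of 1.34 (unadjusted p = 0.0376, adjusted p = 0.239), and no longer did so with DESeq2, with the replicate number as a block in the fit, without assembled transcripts, or without 2W replicate 1, 6W replicate 1 or 6W replicate 2. Col4a3, its neighbour on chromosome 1, had at most 12 estimated counts in a library and was not tested.

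Col15a1 and Col18a1 encode related collagens that carry sugar chains and bridge basement membranes to the matrix, and the end piece of the type XVIII chain is known as endostatin. Col18a1 was measured at 20.6 and 19.7 CPM at 2W, 27.2 and 26.7 CPM at 6W, and 35.4 and 39.2 CPM at 3M. The ages were apart at each step, and Col18a1 rose 1.86-fold in 3M against 2W (log2 fold change 0.89, SE 0.12, adjusted p = 0.00934). Its call was lost without 2W replicate 1 (adjusted p = 0.0544) or 2W replicate 2 (0.0634). Col15a1 stood at 69.7 and 70.8 CPM at 2W, 55.6 and 56.4 CPM at 6W, and 56.4 and 63.6 CPM at 3M, lower at 6W and 3M than at 2W in every library, with a log2 fold change in 3M against 2W of -0.23 (SE 0.11, adjusted p = 0.24). The FPKM ratio of Col18a1 to Col15a1 went from 0.255 and 0.249 at 2W through 0.473 and 0.447 at 6W to 0.615 and 0.606 at 3M. Among Col18a1 transcripts, the most abundant one had 2.24 and 1.92 FPKM at 2W and 4.26 and 4.09 FPKM at 3M, and the next 1.23 and 1.53 FPKM at 2W and 2.08 and 3.30 FPKM at 3M, so both were higher. Over the 7 basement membrane genes tested, the median log2 fold change in 3M against 2W was 0.46, beside -0.03 over all genes tested. The 4 above 0 were Col18a1 and the scarce Col4a4, Col4a5 and Col4a6. The 3 below 0 were Col4a1, Col4a2 and Col15a1, the most abundant of the class.

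**Figure D3:**
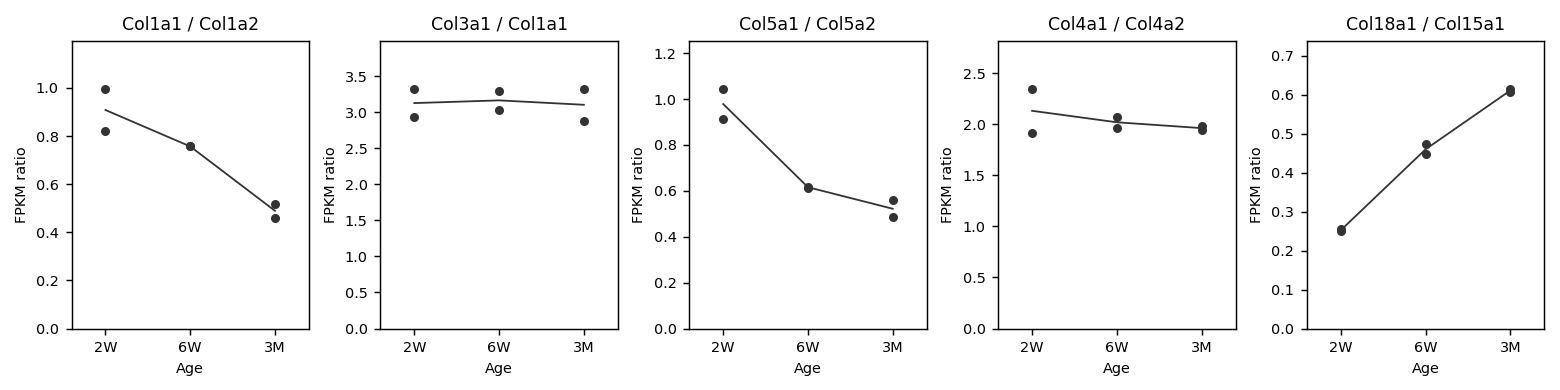
FPKM ratio of 5 pairs of collagen genes against age, with a point for each library and a line through the means. Col1a1 to Col1a2 and Col5a1 to Col5a2 are lower at each later age, Col18a1 to Col15a1 goes from 0.255 and 0.249 to 0.615 and 0.606, and Col3a1 to Col1a1 stayed between 2.88 and 3.33.

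Type XII collagen lies on the surface of type I fibres and belongs to a family that does not form fibres of its own. Its gene Col12a1 was measured at 34.5 and 34.9 CPM at 2W, 39.9 and 40.7 CPM at 6W, and 60.4 and 76.2 CPM at 3M. Both 3M libraries were above all others, and Col12a1 rose 1.97-fold in 3M against 2W (log2 fold change 0.98, SE 0.14, adjusted p = 0.0114). In 3M against 6W its log2 fold change was 0.76 (adjusted p = 0.199). Its call was lost without 2W replicate 1 (adjusted p = 0.0681) or 2W replicate 2 (0.0727). Its FPKM over that of Col1a1 was 0.199 and 0.206 at 2W, 0.272 and 0.319 at 6W, and 0.790 and 1.10 at 3M. Col14a1, of the same family, stayed at 20.0 and 19.9 CPM at 2W, 24.5 and 22.3 CPM at 6W, and 22.3 and 18.7 CPM at 3M, with a log2 fold change in 3M against 2W of 0.04 (SE 0.14, adjusted p = 0.895).

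Type VI collagen forms beaded filaments around cells from the chains of Col6a1, Col6a2 and Col6a3. Col6a1 stood at 48.7 and 35.7 CPM at 2W, 67.4 and 65.6 CPM at 6W, and 47.5 and 64.5 CPM at 3M. Col6a2 stood at 38.2 and 26.8 CPM at 2W, 44.4 and 43.6 CPM at 6W, and 28.1 and 41.9 CPM at 3M. Both were highest at 6W, with wide gaps between the replicates of 2W and of 3M, and 3M replicate 1 was the lower one for each. The log2 fold changes in 6W against 2W were 0.66 (SE 0.20, adjusted p = 0.162) for Col6a1 and 0.43 (SE 0.23, adjusted p = 0.358) for Col6a2. With a library left out they ranged from 0.48 to 0.90 and from 0.23 to 0.71. Col6a3 stood at 39.8 and 40.7 CPM at 2W, 33.2 and 32.5 CPM at 6W, and 28.6 and 35.9 CPM at 3M. Its log2 fold change in 3M against 2W was -0.32 (SE 0.14, adjusted p = 0.194), and ranged from -0.53 to -0.14 with a library left out. Col6a3 over Col6a1 in FPKM was 0.406 and 0.595 at 2W and 0.248 to 0.304 in the 4 later libraries. Col6a1 and Col6a2 are adjacent on chromosome 10, and Col18a1 lies 2 coding genes further on.

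Among the remaining collagens none was called. Col6a4 (5.46 to 8.25 CPM), Col6a5 (8.34 to 12.1 CPM) and Col6a6 (8.03 to 11.9 CPM), which lie side by side on chromosome 9, had log2 fold changes in 3M against 2W of 0.39, 0.33 and 0.23. Col17a1, which anchors epithelial cells to the basement membrane, stood at 2.47 and 2.51 CPM at 2W, 3.20 and 3.62 CPM at 6W, and 3.97 and 3.18 CPM at 3M (log2 fold change in 3M against 2W 0.52, SE 0.27, adjusted p = 0.265). Its 2W libraries were below all later ones. Col8a2, of the corneal and vascular short-chain collagens, passed the study's threshold as lower in 6W against 2W, with 1.26 and 1.72 CPM at 2W, 0.678 and 0.662 CPM at 6W and a log2 fold change of -1.15 (unadjusted p = 0.041, adjusted p = 0.246). Col8a2 no longer passed with DESeq2, with the replicate block, without assembled transcripts, or without either 2W library, either 6W library or 3M replicate 1. Col9a1 had the lowest log2 fold change of the class in 3M against 2W, -1.27 (SE 0.62, adjusted p = 0.245), at 0.265 to 1.90 CPM, and Col19a1 the second highest, 0.81 (SE 0.34, adjusted p = 0.185), at 2.96 to 7.82 CPM. Col7a1, Col8a1, Col9a3, Col10a1, Col16a1, Col20a1 and Col22a1 lay between 0.245 and 4.80 CPM in every library. Col9a2, Col13a1, Col23a1, Col25a1, Col26a1 and Col28a1 were too low to be tested. Over the 19 other collagens tested, 13 had a log2 fold change above 0 in 3M against 2W, with a median of 0.23, beside -0.03 over all genes tested.

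**Figure D4:**
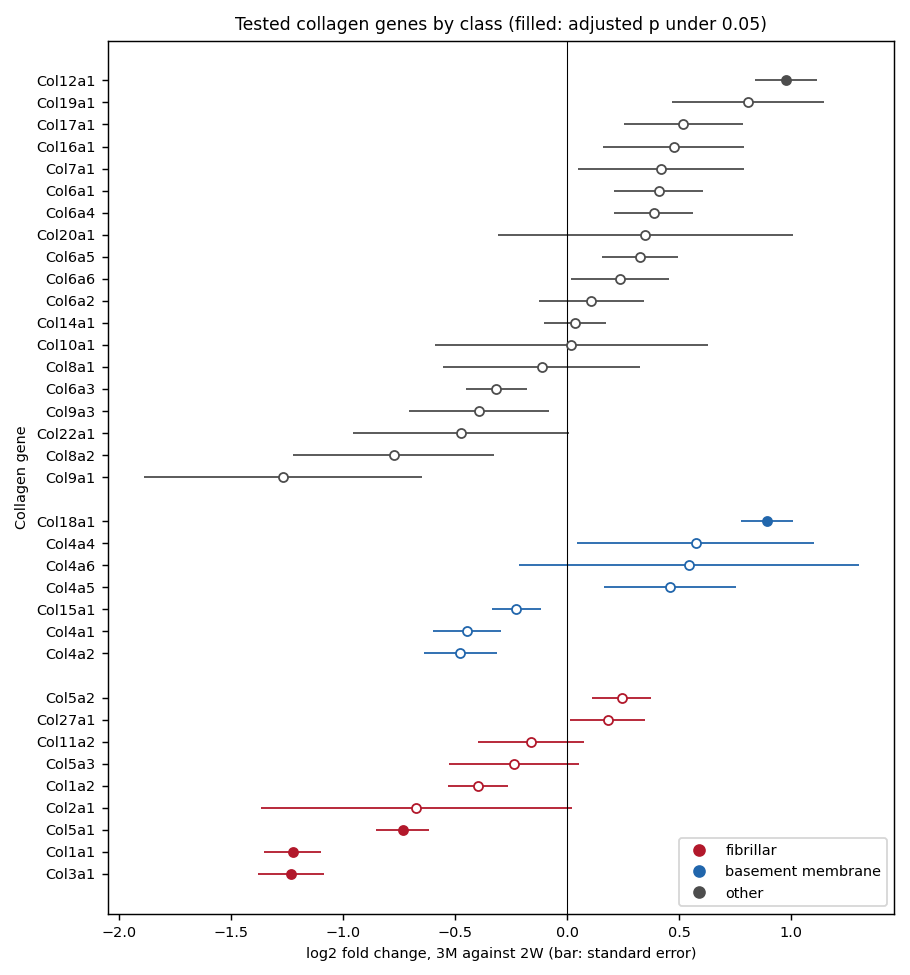
Log2 fold change in 3M against 2W with its standard error (bar) for the 35 tested collagen genes, ordered within each class, with filled points for an adjusted p under 0.05. The filled points are Col1a1, Col3a1 and Col5a1 on the left and Col18a1 and Col12a1 on the right, and the widest bars belong to the lowest genes.

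Collagen chains need a set of enzymes and a chaperone in the endoplasmic reticulum. Of 17 such genes, all tested, 3 rose and 2 fell in 3M against 2W, beside 7.91% and 3.1% of all genes tested, with a median log2 fold change of 0.41 (-0.03 over all genes tested). Serpinh1, the collagen chaperone HSP47, stood at 24.9 and 21.5 CPM at 2W, 35.5 and 38.0 CPM at 6W, and 37.8 and 43.2 CPM at 3M, and rose (log2 fold change 0.80, adjusted p = 0.0166). P4ha1, a prolyl hydroxylase subunit, rose with 0.66 (adjusted p = 0.0214), and P3h2, a prolyl 3-hydroxylase listed mostly under its older symbol, with 1.21 (adjusted p = 0.0389). P3h4, a partner of lysyl hydroxylation, fell with -1.41 (adjusted p = 0.0311), or -1.12 with its older symbol joined, and Mia3, which loads procollagen into transport carriers, with -0.45 (adjusted p = 0.0405). Each of these named calls was lost with either 2W library or either 6W library left out, where fewer of all genes were called too. Without 3M replicate 1, P3h4 and Mia3 lost theirs, and without 3M replicate 2, P4ha1, P3h2 and Mia3 did. In the other comparisons 0 of the 17 were called by edgeR, with an unadjusted p under 0.05 for 5 in 6W against 2W (18.9% of all genes tested) and 3 in 3M against 6W (14.3%).

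Propeptides are then cut off and the chains cross-linked. Of 12 genes tested of 13, 0 were called in any comparison, and 2 had an unadjusted p under 0.05 as higher and 1 as lower in 3M against 2W, beside 5 and 1 in 6W against 2W and 1 and 0 in 3M against 6W. Of all genes tested, 27.3%, 18.9% and 14.3% had such a p in these comparisons. The smallest p in 6W against 2W and in 3M against 2W belonged to Loxl1, a lysyl oxidase, with log2 fold changes of 1.11 (adjusted p = 0.134) and 1.06 (adjusted p = 0.0771). In 3M against 6W it belonged to Lox, at 9.98 and 8.69 CPM at 6W and 15.9 and 13.0 CPM at 3M (log2 fold change 0.62, adjusted p = 0.294).

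The small leucine-rich proteoglycans bind fibrils and set their spacing, and several rose. Of 8 tested of 10, 3 rose in 6W against 2W (1.47% of all genes tested) and 4 in 3M against 2W (7.91%), where the median log2 fold change was 1.30 (-0.03 over all genes tested). Of the 8, edgeR called 0 in 3M against 6W, 0 had an unadjusted p under 0.05 (14.3% of all genes tested), and the median log2 fold change was 0.13, with 5 above 0 and 3 below. Dcn, decorin, stood at 32.5 and 39.4 CPM at 2W, 91.3 and 87.1 CPM at 6W, and 122 and 73.5 CPM at 3M, with a log2 fold change in 3M against 2W of 1.44 (adjusted p = 0.0178). Its higher 3M value was in replicate 1, where the 6 adipocyte markers summed to 206 CPM against 109 CPM in replicate 2, and their part in it was not tested. Bgn, biglycan, stood at 20.8 and 17.1 CPM at 2W, 53.8 and 51.9 CPM at 6W, and 45.8 and 46.3 CPM at 3M, and was called in 6W against 2W (1.48, adjusted p = 0.019) and in 3M against 2W (1.28, adjusted p = 0.00623). Prelp, which ties collagen to basement membranes, and Fmod, fibromodulin, were called in 3M against 2W too, with log2 fold changes of 1.86 (adjusted p = 0.00562) and 1.66 (adjusted p = 0.0219), and in 6W against 2W with 1.63 (adjusted p = 0.0231) and 1.88 (adjusted p = 0.0432). With either 2W library or either 6W library left out, 0 of the 8 were called in 6W against 2W, so that the calls of Bgn, Prelp and Fmod there were lost. Those of Bgn and Prelp in 3M against 2W held with each library left out (adjusted p of at most 0.0391 and 0.0439), while Dcn lost its call without either 2W library and Fmod without either 2W or either 6W library. Without a 2W or 6W library, calls over all genes were fewer in both comparisons too. In FPKM, Dcn over Col1a1 was 1.22 and 1.52 at 2W, 3.99 and 4.46 at 6W, and 10.4 and 6.91 at 3M.

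The counts of genes that rose in 3M against 2W are to be read against the 7.91% of all genes tested that did. Of 11 breakdown genes tested of 12, only Mrc2, an endocytic collagen receptor, was called, as higher in 3M against 2W with a log2 fold change of 1.02 (adjusted p = 0.0316). That share, 9.09%, was near the background. The level of Mrc2 was 3.22 and 2.70 CPM at 2W, 5.43 and 5.52 CPM at 6W, and 6.19 and 5.87 CPM at 3M. Of 8 receptors tested of 9, 3 rose in 3M against 2W: Itga1, an integrin chain, with 0.92 (adjusted p = 0.0209), and the collagen-activated kinases Ddr2 with 1.39 (adjusted p = 0.0299) and Ddr1 with 0.58 (adjusted p = 0.0389). Of 15 basement membrane partners, 4 rose in 3M against 2W: Agrn, agrin, with 0.76 (adjusted p = 0.0116), and the laminin chains Lama3 with 0.90 (adjusted p = 0.013), Lamb1 with 0.74 (adjusted p = 0.0131) and Lamb3 with 0.95 (adjusted p = 0.0328). Without either 2W library 0 members of these 3 lists were called in 3M against 2W, and without either 6W library 2 partners were (Agrn and Lama3) and 0 of the others. Without 3M replicate 1, 1 breakdown gene (Timp2, with Mrc2 lost), 3 receptors and 5 partners were called, and without 3M replicate 2, 0, 2 and 4. Calls over all genes were fewer without a 2W or 6W library as well. None of these 3 lists had a called member in the other comparisons, by edgeR's quasi-likelihood test. In 6W against 2W, 5 of 11 breakdown genes, 3 of 8 receptors and 7 of 15 partners had an unadjusted p under 0.05, beside 18.9% of all genes tested, and in 3M against 6W 1 of 11, 2 of 8 and 3 of 15 did, beside 14.3%.

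The TGF-beta axis is known to drive collagen transcription. Of 9 of its 10 genes that were tested, 0 were called in any comparison by edgeR's quasi-likelihood test. An unadjusted p under 0.05 was found for 4 in 3M against 2W, all higher (27.3% of all genes tested in either direction), for 4 in 6W against 2W, 2 higher and 2 lower (18.9%), and for 0 in 3M against 6W (14.3%). The smallest p belonged to its target Ctgf, listed as Ccn2, in 6W against 2W (log2 fold change 1.47, adjusted p = 0.166), to the ligand Tgfb3 in 3M against 6W (0.39, adjusted p = 0.433), and to the inhibitor Smad7 in 3M against 2W (0.54, adjusted p = 0.0587).

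Markers of the cells that make collagen were read beside these results. The 10 fibroblast markers summed to 170.5 and 203.6 CPM at 2W, 188.7 and 171.0 CPM at 6W, and 195.1 and 160.6 CPM at 3M, so the ages overlapped. Dpp4 alone made up 49.7% to 73.8% of this sum. The other 9 summed to 53.9 and 53.3 CPM at 2W, 81.6 and 77.3 CPM at 6W, and 88.8 and 80.8 CPM at 3M, with both 2W libraries the lowest. Of 9 tested, 3 rose in 3M against 2W (Pdgfra, Pi16 and Tnxb; 7.91% of all genes tested) and 0 fell (3.1% of all genes tested), and Twist2 was near 0 in every library. In the same comparison 1 of 7 mural cell genes, Acta2, rose (155.8 to 188.4 CPM in sum over the 6 libraries). Without Rgs5, the most abundant, the mural sum was 80.2 and 64.4 CPM at 2W and 105.3 to 111.2 CPM in the 4 later libraries. Of 7 endothelial genes 1, Plvap, rose, and 2 others had an unadjusted p under 0.05 as lower in edgeR's test. Their sum was 235.0 and 235.8 CPM at 2W, 234.2 and 223.0 CPM at 6W, and 203.4 and 207.8 CPM at 3M, lowest at 3M. Without Pecam1 the endothelial sum was 57.0 and 56.0 CPM at 2W, 57.5 and 54.2 CPM at 6W, and 67.1 and 60.7 CPM at 3M, highest at 3M. The shares of mural and endothelial genes called, 14.3% each, were near the 11.0% of all genes tested. Of 8 thymic epithelial genes 1 rose (Ly75) and 1 fell (Foxn1). The 6 adipocyte genes summed to 33.1 and 35.9 CPM at 2W, 92.2 and 98.8 CPM at 6W, and 206 and 109 CPM at 3M, and 5 rose. Of 8 DP thymocyte genes 5 fell and all 5 cycling cell genes fell, the latter from 3506 and 3500 CPM to 2367 and 1850 CPM in sum. The markers of cartilage and bone (13.2 to 22.2 CPM in sum), skeletal muscle (5.83 to 12.3 CPM) and mesothelium (11.7 to 32.2 CPM) had 0 calls in any comparison, and Matn3 of cartilage was at 0 in all libraries. In 6W against 2W, 1 fibroblast gene (Pi16), 1 mural cell gene (Acta2) and 2 adipocyte genes (Adipoq and Cidec) rose, beside 1.47% of all genes tested, and 0 of these lists were called without either 2W or either 6W library. With a library left out, 0 to 2 fibroblast, 0 to 2 mural cell, 0 to 1 endothelial, 0 to 3 thymic epithelial, 0 to 4 DP thymocyte, 1 to 6 adipocyte and 0 to 5 cycling cell genes were called in 3M against 2W, with the lowest counts without a 2W or 6W library. Fewer of all genes were called without a 2W or 6W library as well. The marker genes named were chosen after their values were seen. The part of these cell types in the collagen results was not tested.

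The miR-29 family is known to bind collagen mRNAs through its seed, bases 2 to 8, and its members are shown because 4 of them share that seed (capitals). The sequences are those of the deposited table, with T for U.
mmu-miR-29a-3p: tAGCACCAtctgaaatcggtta
mmu-miR-29b-3p: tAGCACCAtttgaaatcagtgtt
mmu-miR-29c-3p: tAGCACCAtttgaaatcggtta
miR-29-y: tAGCACCAtctgaaatcggaa
The first 3 equal the RefSeq mature sequences, which lie in hairpins on chromosome 6 (miR-29a at chr6:31062673-31062694 and a copy of miR-29b at chr6:31063025-31063047, minus strand) and chromosome 1 (a copy of miR-29b at chr1:195037091-195037113 and miR-29c at chr1:195037600-195037621, plus strand) of GRCm38.p6. The miR-29-y entry has no RefSeq name and shares its first 19 bases with mmu-miR-29a-3p.

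All 4 were higher at 6W than at 2W and higher again at 3M in every library. mmu-miR-29a-3p, the most abundant, was counted at 2043 and 1729 CPM of miRNA counts at 2W, 3240 and 3271 CPM at 6W, and 6280 and 5364 CPM at 3M, a 3.09-fold rise in 3M against 2W (log2 fold change 1.63, SE 0.20, adjusted p = 0.000477). mmu-miR-29b-3p went from 90.5 and 54.6 CPM at 2W to 198 and 184 CPM at 3M (log2 fold change 1.40, SE 0.27, adjusted p = 0.00453). mmu-miR-29c-3p went from 14.8 and 9.70 CPM to 68.8 and 51.5 CPM (log2 fold change 2.30, SE 0.27, adjusted p = 0.000477). The miR-29-y entry had the steepest course, 9.97 and 6.27 CPM at 2W, 32.5 and 31.7 CPM at 6W, and 93.4 and 86.2 CPM at 3M (log2 fold change 3.46 in 3M against 2W, adjusted p = 7.87e-05).

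Of 9 miR-29 entries 8 were tested. In 3M against 2W, 5 were called as higher (background 13.5% of 822 miRNAs), the fifth being mmu-miR-29a-5p at only 2 to 30 counts a library. In 6W against 2W, mmu-miR-29a-3p and miR-29-y were called (background 2.31%), and in 3M against 6W mmu-miR-29c-3p and miR-29-y (background 0.487%). With a 2W library left out, 4 or 1 were called in 6W against 2W, and with a 6W library left out 1 in that comparison and 0 in 3M against 6W. Without 3M replicate 1, 1 was called in 3M against 6W, and without 3M replicate 2, 4 were called in 6W against 2W. The rise of miR-29 ran beside the fall of Col1a1, Col3a1 and Col5a1 and beside the rise of Col18a1 and Col12a1, and its part in either was not tested.

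**Figure D5:**
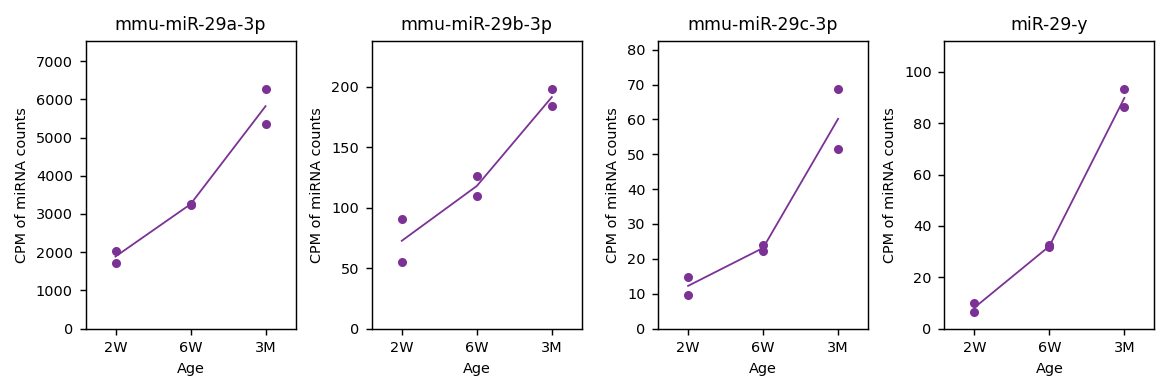
Level of the 4 miR-29 entries that share a seed, in CPM of miRNA counts, against age, with a point for each library and a line through the means. In each panel both 3M libraries lie above both 6W libraries, which lie above both 2W libraries.

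Circular RNAs of collagen genes were nearly absent at this depth. Of 6300 circRNAs in the table, 3 were assigned to collagen genes, with 3 junction counts for Col19a1 in 6W replicate 2, 4 for Col3a1 in 3M replicate 1 (chr1:45348607-45348798, labelled antisense in the table) and 2 for Col24a1 in 3M replicate 2. The libraries held 10663 to 21914 junction counts, and a count of 0 allows up to 3 counts, so no difference between ages was detectable.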

How the data were processed

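RNA of whole thymus was sequenced in 6 libraries of each kind, 2 an age. The authors deposited estimated counts and FPKM per mRNA transcript, junction counts per circRNA and whole tag counts per miRNA. The quantifier and genome build of the mRNA table are not given in the sources used here; the submitters' processing notes name Bowtie 0.12.2 and mm8 with no role. The lncRNA table was not used. The libraries were strand-specific.

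Transcripts were summed by symbol, with spellings in upper and lower case joined (665 genes), and rounded. Transcripts without a symbol, 0.70% to 1.20% of the counts, were left out. In R 4.3.3 with edgeR 4.0.16 (TMM, filterByExpr by age, prior count 0.125) all 6 libraries entered 1 quasi-likelihood fit with age as the only term, p-values were adjusted by Benjamini-Hochberg over all features tested, and calls were made at 0.05. The standard error is the log2 fold change divided by the root of F. CPM uses TMM-scaled library sizes, factors 0.968 to 1.03. Tables were made in Python 3.11.15 with pandas 2.3.3. The fit was tested on simulated data. Replicates of an age differed by more than sampling noise (chi-square over degrees of freedom 7.78 to 36.3). A test of 2 libraries against 2 measures only the spread between these samples, and limits from counts cover counting error only.

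The members, the 7 pathway lists and the 10 marker lists were chosen with earlier results of these data known. Values by library were given for main chains of types I, III, IV, V, VI, XII, XIV, XV, XVII and XVIII, for every collagen called and for the smallest p of each class and comparison. Of each pathway list, called genes were named, up to 6, or else the smallest p of each comparison. Col4a4, Col4a5, Col4a6, Col8a2, Col9a1, Col19a1 and the ranges of low genes were added after their values were seen. Alternatives were DESeq2 1.42.0, total counts, no filter, symbols as written, no assembled transcripts, the 4 libraries compared alone, a replicate term, prior count 2 and each library left out. Joined older symbols, class sums with a library left out, marker sums without their most abundant gene, and list calls with a library left out were chosen after seeing the data.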

Additional observations from a re-analysis of the deposited data

How the results depend on the processing

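The limits are 2 libraries an age and counts that were divided between transcripts. Which results moved was recorded, and the cause was not tested. The 5 calls in 3M against 2W were the same genes under DESeq2, total counts, no filter, exact symbols, the replicate block, prior count 2 and joined older symbols, were 6 without assembled transcripts and 4 with the 4 libraries compared alone (without Col5a1), and were 2 to 7 with a library left out. In 3M against 6W, DESeq2 called 3, beside 341 of all 14805 genes, and the fit with no filter 2 (Col1a1, Col3a1), beside 19 of 19335. At the study threshold, 6W against 2W had 0 genes with DESeq2 and 1 with the replicate block (Col9a1, with neither Col4a4 nor Col8a2), and 0 to 2 with a library left out; 3M against 6W had 1 without assembled transcripts and 0 to 2 with a library left out; 3M against 2W had 2 to 4.

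The replicate numbers are not stated to pair the samples, and the differences between replicates correlated at -0.10, -0.27 and 0.36 between ages. The replicate block left the collagen calls at 5 in 3M against 2W and at 0 in the others, while calls over all genes went from 257 to 5 in 6W against 2W, from 1 to 0 in 3M against 6W and from 1630 to 742 in 3M against 2W. Over all alternatives these totals ranged from 0 to 888, 0 to 341 and 239 to 2200, and DESeq2 called 632 of 888 as higher in 6W against 2W, beside 218 of 257.

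Without their most abundant member, the log2 ratio of the fibrillar sum was -0.44 in 3M against 6W and -0.55 in 3M against 2W, and that of all collagens -0.073 and -0.16. In FPKM it was 0.40 for other collagens and -0.055 for all collagens in 6W against 2W. With a library left out, the fibrillar ratio in 3M against 2W ranged from -0.97 to -0.76, and class sums kept their sign except in 3M against 6W for basement membrane (-0.0599 to 0.20) and other collagens (-0.072 to 0.16).

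Values that changed sign were all uncalled. Without assembled transcripts these were, in 3M against 6W, Col14a1 at 0.072, Col15a1 at -0.13, Col17a1 at -0.069, Col1a2 at 0.32, Col4a1 at -0.061 and Col6a3 at 0.072 (0.055 with exact symbols), and Col1a2 at 0.95 in 3M against 2W. With a library left out, log2 fold changes ranged in 6W against 2W for Col1a2 from -0.077 to 0.14, in 3M against 6W for Col15a1 from -0.043 to 0.19, Col17a1 from -0.092 to 0.17, Col4a1 from -0.17 to 0.20, Col4a2 from -0.33 to 0.13, Col5a2 from -0.0936 to 0.057 and Col6a3 from -0.25 to 0.14, and in 3M against 2W for Col14a1 from -0.070 to 0.13 and Col6a2 from -0.25 to 0.39. The miR-29 entries called were 4 with DESeq2 and 1 to 4 with a library left out in 6W against 2W, 0 to 2 in 3M against 6W and 4 to 5 in 3M against 2W.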
